A study of Homo sapiens with 19 samples.

Results

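The genes of DNA replication and S phase were followed through mRNA-seq libraries of HepG2, a human liver cancer cell line, in which the chromatin remodeler INO80 or its partner MCRS1 was depleted with siRNA. The set holds 56 genes, found by symbol among the 34825 gene symbols of each of the 2 deposited tables. It covers origin licensing, helicase activation, the replication fork, deoxynucleotide supply, the G1/S switch and the copying of chromatin behind the fork. All 56 genes were expressed above the filter on low values in both tables, that is, a mean of at least 10 normalized counts, the read count of a gene divided by 1 size factor per library. They were tested together with all 14034 genes that passed in the INO80 table and all 14312 that passed in the drug table.

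Before S phase the origin recognition complex, with CDC6 and CDT1, loads the ring of MCM2 to MCM7 onto origins, and the kinase of CDC7 and DBF4, together with CDC45 and the GINS proteins, turns that ring into the moving helicase. Behind it, DNA polymerase alpha and its primase lay primers, the RFC clamp loader places PCNA, polymerases delta and epsilon copy the strands, FEN1 and LIG1 join Okazaki fragments, and RPA covers single-stranded DNA. Most of these genes are transcribed at the G1/S boundary by E2F factors, which cyclin E and CDK2 release from the retinoblastoma protein. INO80 is the ATPase of a complex that moves nucleosomes, MCRS1 is an accessory subunit of it, and EPZ-6438 inhibits EZH2, the methyltransferase that places the repressive mark H3K27me3.

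The data fall into 2 experiments, each with its own scaling, so levels were compared only inside a table. The INO80 experiment had 9 libraries, 3 of cells given the control siRNA NTG, 3 given siINO80#1 and 3 given siINO80#2, lettered A, B and C. In the drug experiment there were 10 libraries from cells kept in DMSO or in 1 uM EPZ-6438 for 3 days ahead of transfection, namely DMSO NTG (2 libraries, numbered 1 and 3), DMSO siMCRS1 (3), EPZ-6438 NTG (3) and EPZ-6438 siMCRS1 (2). Every group received 50 nM siRNA and was harvested after 72 hours (siMCRS1 is 1 siRNA by its label). Nothing in the labels says whether replicates came from separate cultures, so p-values measure the spread between these libraries, which may be technical.

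Recovered reads per library ran from 17093574 to 25369547 in the INO80 experiment and from 26038505 to 47397233 in the drug experiment, and replicates of a group differed by more than sampling noise in all 17 replicate pairs (chi-square per degree of freedom 9.45 to 121). The library siINO80#2 C stood apart from its replicates, at 84.3 against A and 121 against B, where A and B differed by 18.7. The targeted genes followed their labels. INO80 stood at 1278, 1338 and 1175 normalized counts in NTG, at 576, 639 and 609 in siINO80#1 and at 439.8, 456 and 483 in siINO80#2, log2 changes of -1.05 and -1.46. MCRS1 stood at 1577 and 1283 in DMSO NTG and at 140.2, 83.7 and 119 in DMSO siMCRS1. In EPZ-6438 it stood at 1533, 1355 and 1201 in the controls and 126 and 90.5 with siMCRS1, and the log2 change was -3.66 in both media. All 10 hepatocyte markers were expressed (ALB, AFP, APOA1 and others), summing to at least 588452 normalized counts in each library of the INO80 experiment and 967865 in each of the drug experiment. Markers of other cells were mixed. CD3E, LUM, KDR and HBB had group means under 10 in every group, whereas 3 of 6 fibroblast markers (COL1A1 the highest), 2 of 5 blood cell markers (CD68 and PTPRC) and 1 of 4 endothelial markers (PECAM1; with CDH5, 2 of 4 in the drug experiment) had a mean of at least 10. The highest means, in the INO80 and the drug experiment, were 1002 and 919 for CD68, 259 and 181 for PECAM1 and 99.0 and 389 for COL1A1.

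In each of the 4 comparisons of a knockdown with NTG, more of the 56 genes were lower than higher. With siINO80#2, 47 genes were lower and 4 higher than in NTG (limma on log2(normalized count + 1), Benjamini-Hochberg adjusted p under 0.05 over all genes tested), where 28.4% of all genes tested were lower and 26.6% higher. With siINO80#1, 24 were lower and 7 higher, where the background was 20.8% lower and 20.7% higher. For this comparison all 3 same-letter pairs of libraries deviated together (correlations 0.14 to 0.26), while for siINO80#2 and NTG 0 of 3 correlated over 0.1. With the letter as a replicate block in a fit of all libraries of the experiment, 34 were lower and 7 higher, against 22.6% and 22.5% of all genes. With siMCRS1 in DMSO, 35 were lower and 2 higher against a background of 24.6% and 23.1%, and in EPZ-6438 24 were lower and 6 higher against 26.9% and 26.8%. The median log2 change of the 56 genes was -0.91, -0.36, -0.48 and -0.30 in these 4 comparisons, while the median over all genes tested lay within 0.01 of 0 in each.

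The split of calls depended on how libraries were scaled. When each library was rescaled to the same total in place of its size factor, the median of all genes moved to -0.08 with siINO80#1, -0.11 with siINO80#2 and -0.23 with siMCRS1 in either medium, and the share of lower genes among all calls moved from 50.1% to 60.2%, from 51.7% to 61.3%, from 51.6% to 73.0% in DMSO and from 50.1% to 69.9% in EPZ-6438. The 56 genes then counted 25 lower and 5 higher with siINO80#1, 47 and 3 with siINO80#2, 40 and 0 in DMSO and 36 and 4 in EPZ-6438 with siMCRS1. Their medians, at -0.44, -1.02, -0.71 and -0.54, remained below the shifted median of all genes.

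**Figure D1:**
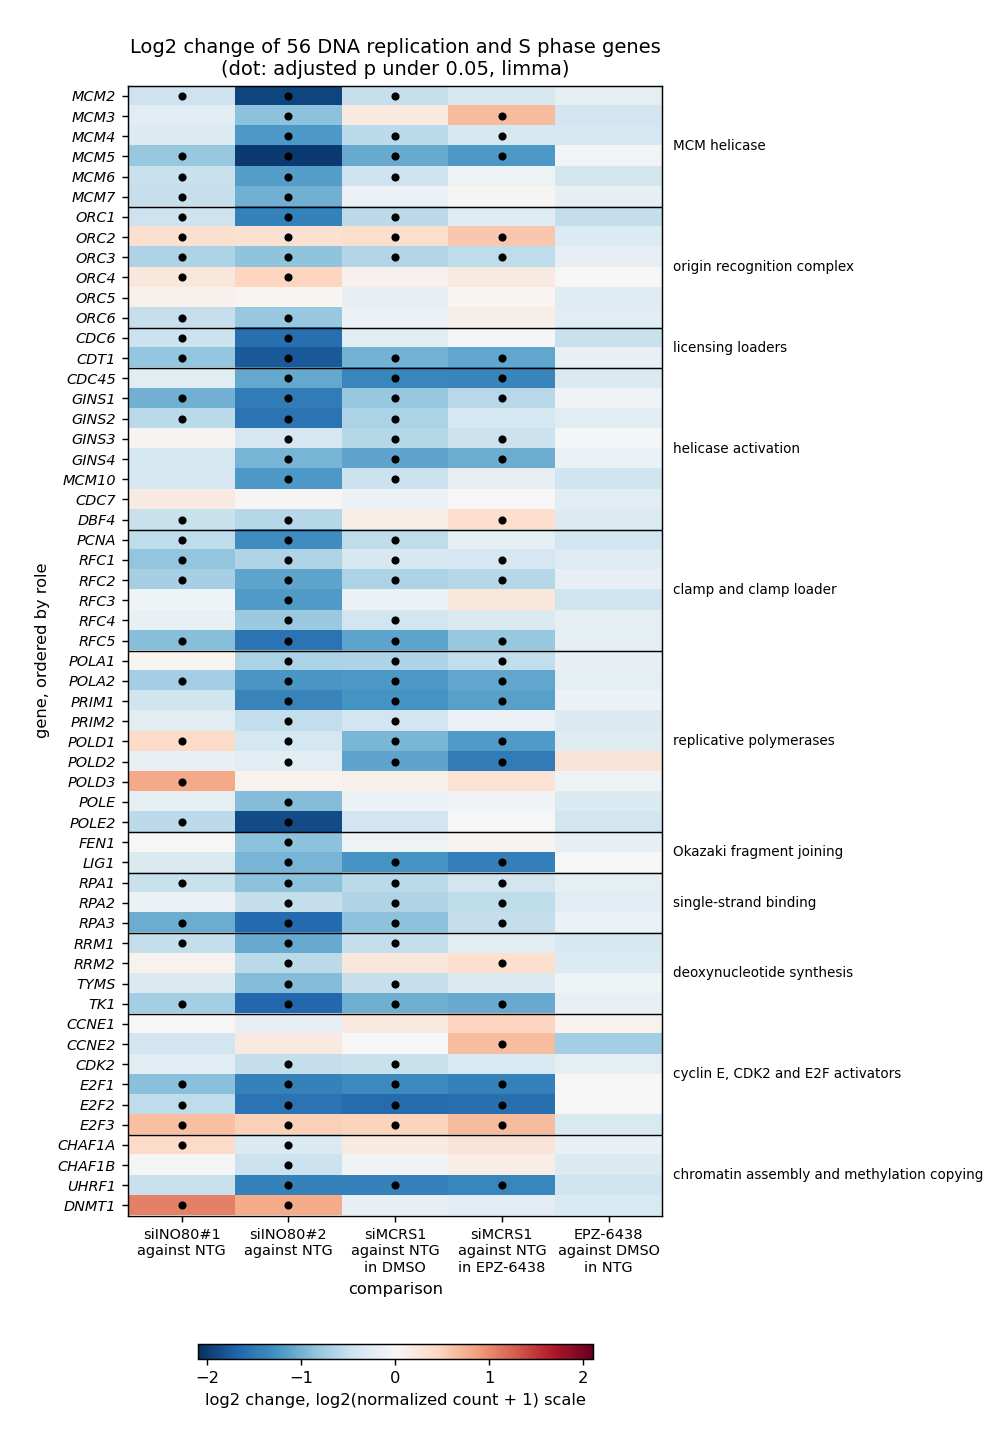
Log2 change of each of the 56 genes (rows, ordered by role) in 5 comparisons (columns), as color from blue (lower) to red (higher), with a dot where the limma adjusted p was under 0.05. The siINO80#2 column is the bluest, with 47 genes lower, and the column of EPZ-6438 against DMSO holds no dot.

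The shift was spread over the set. With siINO80#1 and siINO80#2 the log2 change was below 0 for 43 and 48 of the 56 genes, and with siMCRS1 for 47 in DMSO and 40 in EPZ-6438. Of all genes tested, 49.9%, 50.0%, 49.9% and 49.6% were below 0 in these comparisons. Libraries within a group differed in the shift of the set. Taking each library's median difference from the mean of its controls, on the log2 scale, the NTG libraries A, B and C stood at 0.09, 0.02 and -0.12, the siINO80#1 libraries at -0.22, -0.37 and -0.45, and the siINO80#2 libraries at -0.78, -0.89 and -1.22. The 3 groups did not overlap in this median. Without siINO80#2 C, the lowest library, 45 genes were lower and 4 higher with siINO80#2 (median -0.80), and 32 were lower and 7 higher with siINO80#1, whose fit shares its spread with that library. In the drug experiment the 2 DMSO NTG libraries lay apart from each other at 0.14 and -0.14, the DMSO siMCRS1 libraries stood at -0.31, -0.54 and -0.59, EPZ-6438 NTG at -0.11, -0.26 and -0.33, and EPZ-6438 siMCRS1 at -0.52 and -0.57. Within the control groups, 53 of 56 genes were below the NTG mean in NTG C, and 49 of 56 were below the DMSO NTG mean in DMSO NTG 3. Each mean includes the library itself, so DMSO NTG 1 and 3 mirror each other. For these control libraries the share of all genes below the control mean was not counted, and whether these shifts are particular to the set was not tested. Since each level is a mean over a culture, a smaller share of cells in S phase and less RNA per cell cannot be told apart in these libraries.

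**Figure D2:**
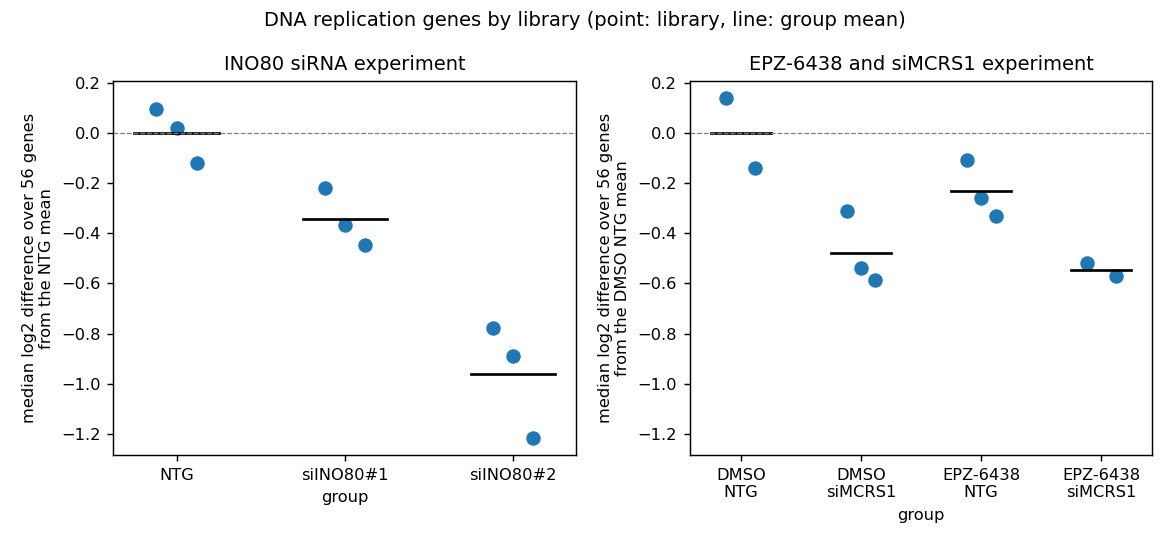
Each point is 1 library, placed by group (horizontal axis) and by its median log2 difference of the 56 genes from the mean of the control libraries (vertical axis), with 1 panel per experiment. The siINO80#2 libraries sit at -0.78 to -1.22, below the siINO80#1 libraries at -0.22 to -0.45 and the NTG libraries at -0.12 to 0.09.

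Among the licensing genes, the helicase ring fell as a unit with siINO80#2 and in part with siINO80#1. All 6 MCM genes were lower with siINO80#2, by 0.86 (MCM3) to 2.02 (MCM5) on the log2 scale, and 4 of 6 with siINO80#1. In normalized counts of libraries A, B and C, MCM2 read 2090.1, 1969.9 and 1695 in NTG, 1492, 1413 and 1338 with siINO80#1 and 555, 603 and 382 with siINO80#2. The 3 groups formed 3 separate steps, with group values of 1918 ± 202, 1414 ± 76.8 and 513 ± 117 (SD, n = 3 each), and the log2 change was -0.44 (SE 0.15, adjusted p = 0.039) with siINO80#1 and -1.92 (SE 0.15, adjusted p = 2.9e-06) with siINO80#2. The smaller step was less secure, since its adjusted p passed 0.05 in 5 of 9 fits that left out 1 library (NTG A or B, or any siINO80#1 library) and reached 0.13 without NTG A, where the change was -0.37.

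MCM5 read 1979, 1796 and 1663 in NTG, 1129, 1071 and 944 with siINO80#1 and 448, 525 and 377 with siINO80#2. Again no group overlapped another. The log2 change was -0.79 (SE 0.12, adjusted p = 4.8e-04) with siINO80#1 and -2.02 (SE 0.12, adjusted p = 5.6e-07) with siINO80#2, the latter the largest fall of any of the 56 genes in the INO80 experiment. The subunits MCM4, MCM6 and MCM7 had siINO80#2 changes of -1.21, -1.15 and -1.01.

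The factors that load the ring fell with it, whereas the origin recognition complex split. CDT1 read 899, 1034 and 869 in NTG, 492, 562 and 538 with siINO80#1 and 276, 332 and 220.1 with siINO80#2, a log2 change of -0.81 (SE 0.14, adjusted p = 8.7e-04) and -1.77 (SE 0.14, adjusted p = 2.7e-06). CDC6 read 2156, 1881 and 1774 in NTG, 1654, 1386 and 1228 with siINO80#1 and 702, 702 and 542 with siINO80#2, a log2 change of -0.45 (SE 0.13, adjusted p = 0.019) and -1.58 (SE 0.13, adjusted p = 4.5e-06). All values of both genes were lower in either knockdown than in any NTG library. For CDC6 the siINO80#1 call was lost when NTG A, siINO80#1 B or siINO80#1 C was left out, with a highest adjusted p of 0.081 without siINO80#1 C (log2 change -0.35).

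Of the 6 ORC genes, ORC1, ORC3 and ORC6 were lower with both INO80 siRNAs (siINO80#2 log2 changes -1.43, -0.84 and -0.79), ORC2 and ORC4 were higher with both, and ORC5 was at 0.09 and 0.04 without passing the test. The ORC1 call with siINO80#1 was barely past the threshold (log2 change -0.44, limma adjusted p = 0.049). It was lost in 6 of 9 fits without 1 library, and also under rescaling to the same total and quantile normalization. ORC4 read 1299, 1249 and 1211 in NTG, 1546, 1502 and 1407 with siINO80#1 and 1701, 1603 and 1820.5 with siINO80#2, a log2 change of 0.24 (SE 0.07, adjusted p = 0.019) and 0.45 (SE 0.07, adjusted p = 3.6e-04). ORC2 read 1449.9, 1298 and 1329 in NTG, 1912, 1572 and 1691 with siINO80#1 and 1748, 1604 and 1738 with siINO80#2, a log2 change of 0.34 (SE 0.08, adjusted p = 0.0080) and 0.32 (SE 0.08, adjusted p = 0.0079). For both genes every knockdown library was above every NTG library. The ORC4 call with siINO80#1 was lost when siINO80#1 A or B, or NTG B or C, was left out (adjusted p up to 0.069, log2 change 0.21 without siINO80#1 A). When libraries were rescaled to the same total, 2 of these rises missed the threshold, ORC4 with siINO80#1 at 0.16 (adjusted p = 0.089) and ORC2 with siINO80#2 at 0.21 (adjusted p = 0.053).

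**Figure D3:**
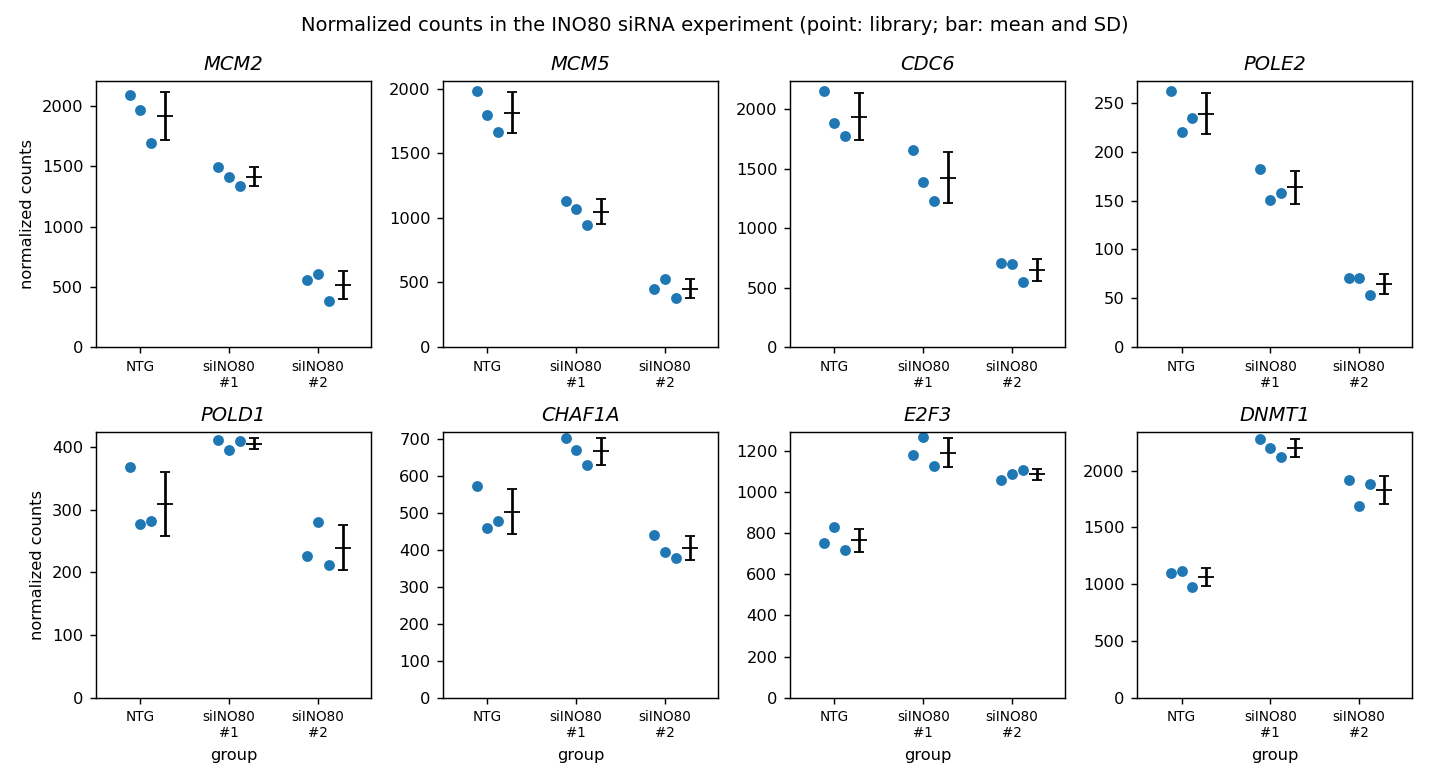
Normalized counts (vertical axis, from 0) of MCM2, MCM5, CDC6, POLE2, POLD1, CHAF1A, E2F3 and DNMT1 in the INO80 experiment, with 1 point per library, a horizontal line at the mean and a bar of 1 SD. MCM2, MCM5, CDC6 and POLE2 step down from NTG through siINO80#1 to siINO80#2, E2F3 and DNMT1 are higher in both knockdowns, and POLD1 and CHAF1A are highest with siINO80#1.

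Helicase activation followed the same course. With siINO80#1, 3 of 8 of these genes were lower (GINS1, GINS2 and DBF4), and with siINO80#2 7 of 8 (CDC45, all 4 GINS genes, MCM10 and DBF4), and the kinase gene CDC7 was at 0.02. GINS1 read 1508, 1519 and 1332 in NTG, 798, 714 and 665 with siINO80#1 and 571, 569 and 442 with siINO80#2, a log2 change of -1.003 (SE 0.11, adjusted p = 6.7e-05) and -1.47 (SE 0.11, adjusted p = 2.7e-06). It was one of the 3 largest falls with siINO80#1, and its groups did not overlap. CDC45 read 308, 341 and 309 in NTG, 310.0, 242 and 263 with siINO80#1 and 163, 148 and 142 with siINO80#2, a log2 change of -0.24 (SE 0.12, adjusted p = 0.13) with siINO80#1, which did not pass, and -1.08 (SE 0.12, adjusted p = 2.3e-05) with siINO80#2.

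At the fork, PCNA and its loader fell. With siINO80#2 all 6 genes of this group were lower, and with siINO80#1 4 of 6. PCNA, the sliding clamp, read 5937, 6028 and 5295 in NTG, 4366, 4082 and 3531 with siINO80#1 and 2773, 2795 and 1633 with siINO80#2, a log2 change of -0.53 (SE 0.18, adjusted p = 0.035) and -1.30 (SE 0.18, adjusted p = 1.2e-04). The siINO80#2 libraries were spread widely, C lying well under A and B, yet all 3 were below every other library. With siINO80#1 the PCNA call was lost without NTG A, B or C, or without siINO80#1 B or C (adjusted p up to 0.12 and a log2 change of -0.44 without siINO80#1 C). RFC5, a loader subunit, read 683, 701 and 638 in NTG, 413, 349 and 333 with siINO80#1 and 275, 238 and 183 with siINO80#2, a log2 change of -0.89 (SE 0.14, adjusted p = 6.1e-04) and -1.55 (SE 0.14, adjusted p = 7.9e-06). RFC3, another loader subunit, read 821, 812 and 663 in NTG, 758, 734 and 662 with siINO80#1 and 368, 386 and 264 with siINO80#2, with siINO80#1 libraries inside the NTG range or close to it. Its log2 change was -0.09 (adjusted p = 0.66) with siINO80#1 and -1.18 (adjusted p = 5.2e-05) with siINO80#2.

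Of the 9 polymerase genes 8 were lower with siINO80#2, and with siINO80#1 2 were lower and 2 higher. POLE2, a subunit of the leading strand polymerase, read 262, 221 and 234 in NTG, 182, 151 and 157 with siINO80#1 and 70.7, 70.5 and 52.9 with siINO80#2. That was a log2 change of -0.55 (SE 0.15, adjusted p = 0.013) and -1.88 (SE 0.15, adjusted p = 3.1e-06), and the groups did not overlap, although the siINO80#1 call was lost without NTG A (adjusted p = 0.056, log2 change -0.48) or without siINO80#1 B. POLD3, an accessory subunit of polymerase delta, was one of the 3 largest rises with siINO80#1. It read 206, 144 and 144 in NTG, 297, 282 and 269 with siINO80#1 and 191, 175 and 148 with siINO80#2, a log2 change of 0.80 (SE 0.16, adjusted p = 0.0020) and 0.07 (SE 0.16, adjusted p = 0.73).

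POLD1 and CHAF1A passed the test in opposite directions with the 2 INO80 siRNAs. The catalytic subunit of polymerase delta, POLD1, read 368, 277 and 282 in NTG, 411, 396 and 410.2 with siINO80#1 and 227, 280.3 and 213 with siINO80#2. Each siINO80#1 library was above each NTG library, and 2 of 3 siINO80#2 libraries were below all 3. The log2 change was 0.40 (SE 0.13, adjusted p = 0.034) with siINO80#1 and -0.36 (SE 0.13, adjusted p = 0.041) with siINO80#2. Neither call was secure: the first was lost in 5 of 9 fits without 1 library (siINO80#1 A, B or C, NTG B or C; adjusted p up to 0.12, log2 change 0.33 without NTG B), and the second in 6 of 9 (all but NTG B, NTG C and siINO80#2 B; up to 0.17, log2 change -0.23 without NTG A). CHAF1A, the large subunit of the histone chaperone CAF-1, read 574, 459 and 480.0 in NTG, 703, 670.2 and 631 with siINO80#1 and 441, 396 and 379.8 with siINO80#2, a log2 change of 0.41 (SE 0.10, adjusted p = 0.0085) and -0.31 (SE 0.10, adjusted p = 0.025). Its second call was lost without NTG A, siINO80#2 B or siINO80#2 C (adjusted p up to 0.11, log2 change -0.21 without NTG A). After rescaling to the same total the POLD1 rise missed the threshold (0.32, adjusted p = 0.13), and the CHAF1A rise was close to it (0.33, adjusted p = 0.049). Both falls were lost under quantile normalization and in a fit of only the groups compared, and the POLD1 fall also with edgeR.

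RPA and the deoxynucleotide enzymes fell with siINO80#2 in all 3 and all 4 of their genes. RPA3, the smallest subunit, had the largest fall of the 56 genes with siINO80#1. It read 635, 655 and 623 in NTG, 365, 303 and 266 with siINO80#1 and 263, 265 and 122 with siINO80#2, a log2 change of -1.04 (SE 0.25, adjusted p = 0.0071) and -1.64 (SE 0.25, adjusted p = 2.7e-04). TK1, the S phase thymidine kinase, read 1143, 1123 and 1097 in NTG, 728, 689 and 645 with siINO80#1 and 429, 427 and 248 with siINO80#2, a log2 change of -0.71 (SE 0.18, adjusted p = 0.0081) and -1.65 (SE 0.18, adjusted p = 2.1e-05). Neither gene had overlapping groups, but for RPA3 siINO80#1 C and siINO80#2 B were nearly equal (265.9 and 265.0). Its direct difference between the siRNAs, -0.60 (limma, adjusted p = 0.12), did not pass. RRM2, the regulated subunit of ribonucleotide reductase, read 5401, 4690.2 and 4154 in NTG, 5492, 4839 and 4589 with siINO80#1 and 3689, 3418 and 2588 with siINO80#2, and only its siINO80#2 change of -0.56 (SE 0.14, adjusted p = 0.0051) passed, the siINO80#1 value being 0.07 (adjusted p = 0.71).

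The E2F activators, which drive many of the other genes, did not move as one. E2F1 read 952, 918 and 992 in NTG, 517, 528 and 508 with siINO80#1 and 389, 423 and 277 with siINO80#2, a log2 change of -0.88 (SE 0.13, adjusted p = 4.5e-04) and -1.41 (SE 0.13, adjusted p = 1.0e-05). E2F2 read 193, 191 and 173 in NTG, 132, 120.0 and 132 with siINO80#1 and 60.6, 72.0 and 56.7 with siINO80#2, a log2 change of -0.53 (SE 0.13, adjusted p = 0.0082) and -1.55 (SE 0.13, adjusted p = 5.1e-06). E2F3 went the other way, at 752, 828 and 718 in NTG, 1180.4, 1267 and 1129 with siINO80#1 and 1059, 1091 and 1110.0 with siINO80#2, a log2 change of 0.64 (SE 0.08, adjusted p = 9.5e-05) and 0.51 (SE 0.08, adjusted p = 2.4e-04). All 6 knockdown libraries were below every NTG library for E2F1 and E2F2 and above every NTG library for E2F3, and the E2F3 rise also passed in both comparisons after rescaling to the same total (0.56 and 0.40). Neither cyclin E gene passed with either siRNA. CCNE1 read 539.8, 649.8 and 607 in NTG, 575, 606 and 601 with siINO80#1 and 479, 589 and 530.0 with siINO80#2 in overlapping groups.

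In the chromatin group, DNMT1, the methyltransferase that copies CpG methylation onto new strands, was the largest rise of the 56 genes with either INO80 siRNA. It read 1099, 1119 and 973 in NTG, 2278, 2199 and 2123 with siINO80#1 and 1915, 1686 and 1883 with siINO80#2. The log2 change was 1.05 (SE 0.08, adjusted p = 4.9e-06) and 0.78 (SE 0.08, adjusted p = 1.5e-05), and after rescaling to the same total it was 0.97 and 0.67. UHRF1, the protein that brings DNMT1 to hemimethylated DNA, moved the other way, at 2509, 2020.2 and 1759.8 in NTG, 1787, 1434 and 1314 with siINO80#1 and 887, 905 and 576 with siINO80#2. Its log2 change was -0.47 (SE 0.19, adjusted p = 0.068), which did not pass without the replicate block (adjusted p = 0.0051 with it), and -1.42 (SE 0.19, adjusted p = 9.1e-05).

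The start regions of these genes were read because so many of them moved together. RefSeq promoters (GRCh38.p14, 300 bases, from 250 before to 50 after the start) matched 48 of the 56 genes by symbol, and MCM4, MCM5, GINS4, POLD3, RPA2, RPA3, CCNE2 and CDK2 had no entry. The E2F-type motif TTTNNCGC, searched on both strands, was present in 26 of the 48 (54.2%), against 6.89% of all 35116 promoters in the reference table and 10.3% of the 10251 promoters of genes tested in the INO80 table. CCAAT, the letters bound by NF-Y, was also in 26 (54.2%, against 34.6% and 36.6%). The cell cycle letters TTTGAA or TTCGAA were in 4 (8.33%, against 16.4% and 11.5%), and the YY1-type AANATGGC in 4 (8.33%, against 6.58% and 9.98%). A match is a run of letters and not a bound site.

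For 8 genes the promoter is given here on the strand of the gene, 5′ to 3′, with each match to TTTNNCGC or its reverse complement in capitals and overlapping matches run together. MCM2 (chr3:127598161-127598460, plus strand), CDT1 (chr16:88803539-88803838, plus strand), POLE2 (chr14:49688165-49688464, minus strand), UHRF1 (chr19:4909251-4909550, plus strand), E2F1 (chr20:33686336-33686635, minus strand) and E2F2 (chr1:23531184-23531483, minus strand) belong to genes that fell, and E2F3 (chr6:20401629-20401928, plus strand) and DNMT1 (chr19:10194904-10195203, minus strand) to genes that rose, so that both directions can be seen with a match.
MCM2: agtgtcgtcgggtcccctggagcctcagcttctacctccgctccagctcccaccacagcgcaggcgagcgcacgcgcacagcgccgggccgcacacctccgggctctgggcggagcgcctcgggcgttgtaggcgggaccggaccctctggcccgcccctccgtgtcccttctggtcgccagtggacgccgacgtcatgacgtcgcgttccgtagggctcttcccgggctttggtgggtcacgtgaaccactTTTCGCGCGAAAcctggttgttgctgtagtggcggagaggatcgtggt
CDT1: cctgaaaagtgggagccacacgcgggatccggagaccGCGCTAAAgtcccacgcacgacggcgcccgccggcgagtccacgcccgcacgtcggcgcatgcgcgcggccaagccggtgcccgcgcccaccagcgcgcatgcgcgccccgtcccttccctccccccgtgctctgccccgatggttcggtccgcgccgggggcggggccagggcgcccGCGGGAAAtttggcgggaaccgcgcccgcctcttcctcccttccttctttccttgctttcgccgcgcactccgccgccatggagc
POLE2: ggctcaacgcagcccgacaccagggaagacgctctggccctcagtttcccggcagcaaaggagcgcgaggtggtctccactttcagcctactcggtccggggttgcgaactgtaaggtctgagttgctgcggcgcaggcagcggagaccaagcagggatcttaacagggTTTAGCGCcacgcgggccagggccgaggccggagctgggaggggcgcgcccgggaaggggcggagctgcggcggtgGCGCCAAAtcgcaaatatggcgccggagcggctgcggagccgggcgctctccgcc
UHRF1: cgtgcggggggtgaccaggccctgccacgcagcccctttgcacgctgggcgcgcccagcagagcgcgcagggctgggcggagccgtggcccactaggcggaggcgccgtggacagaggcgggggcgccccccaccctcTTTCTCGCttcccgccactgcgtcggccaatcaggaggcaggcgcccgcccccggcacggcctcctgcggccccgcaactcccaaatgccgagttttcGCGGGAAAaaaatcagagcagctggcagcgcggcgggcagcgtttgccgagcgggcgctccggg
E2F1: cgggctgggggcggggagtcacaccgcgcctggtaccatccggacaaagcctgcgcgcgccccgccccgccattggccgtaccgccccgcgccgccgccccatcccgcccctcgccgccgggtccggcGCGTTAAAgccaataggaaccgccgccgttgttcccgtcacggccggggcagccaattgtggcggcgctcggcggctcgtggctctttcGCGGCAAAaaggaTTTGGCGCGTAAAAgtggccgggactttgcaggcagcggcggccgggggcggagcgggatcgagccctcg
E2F2: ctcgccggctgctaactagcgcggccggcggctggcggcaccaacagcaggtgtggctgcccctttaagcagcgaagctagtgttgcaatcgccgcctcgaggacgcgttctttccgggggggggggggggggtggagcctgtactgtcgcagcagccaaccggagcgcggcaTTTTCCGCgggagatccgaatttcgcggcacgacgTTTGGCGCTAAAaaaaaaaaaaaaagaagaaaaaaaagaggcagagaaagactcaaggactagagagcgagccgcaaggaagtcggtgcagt
E2F3: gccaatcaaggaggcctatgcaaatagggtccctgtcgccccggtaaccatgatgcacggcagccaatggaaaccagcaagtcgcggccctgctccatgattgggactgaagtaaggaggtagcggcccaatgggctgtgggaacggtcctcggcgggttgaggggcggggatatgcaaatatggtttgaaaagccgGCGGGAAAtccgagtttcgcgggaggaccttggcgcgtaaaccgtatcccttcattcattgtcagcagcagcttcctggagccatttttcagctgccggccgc
DNMT1: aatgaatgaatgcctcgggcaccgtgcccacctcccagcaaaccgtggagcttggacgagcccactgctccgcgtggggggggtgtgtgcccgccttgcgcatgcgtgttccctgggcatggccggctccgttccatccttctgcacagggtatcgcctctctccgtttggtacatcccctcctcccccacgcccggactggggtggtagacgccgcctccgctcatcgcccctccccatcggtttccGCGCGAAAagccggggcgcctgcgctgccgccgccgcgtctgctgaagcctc

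E2F1 held 4 matches, E2F2 3, MCM2, CDT1, POLE2 and UHRF1 2 each, and E2F3 and DNMT1 1 each. Of the 26 genes with a match, 24 were lower and 2 higher with siINO80#2 (median log2 change -1.17), and of the 22 without one 17 were lower and 2 higher (median -0.58). With siINO80#1 the corresponding counts were 16 of 26 lower (median -0.48) and 6 of 22 (median -0.15). With siMCRS1 in DMSO they were 17 of 26 (median -0.50) and 12 of 22 (median -0.41), and in EPZ-6438 12 of 26 (median -0.35) and 7 of 22 (median -0.15). For scale, 28.4% of all genes tested were lower with siINO80#2 and 20.8% with siINO80#1. For siMCRS1 that share was 24.6% (DMSO medium) and 26.9% (EPZ-6438 medium). Among genes without a match, 6 of 22 (siINO80#1) and 7 of 22 (siMCRS1, EPZ-6438 medium) were thus not far from all genes. The other counts without a match, 17 of 22 (siINO80#2) and 12 of 22 (siMCRS1, DMSO medium), lay well above them. These are counts over the genes of the set, without a test between genes with and without a match.

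When the 2 INO80 siRNAs were compared directly, 40 of the 56 genes were lower with siINO80#2 than with siINO80#1 and 0 higher (limma, and also 40 and 0 with edgeR), where 12.6% of all genes tested were lower and 9.48% higher. At an unadjusted p under 0.05 by limma, 44 were lower and 2 higher, beside 2688 lower and 2248 higher of all 14034. The median difference was -0.62, against -0.01 over all genes, and -0.47 without siINO80#2 C. The 6 largest were MCM2 at -1.49 (SE 0.15, adjusted p = 1.9e-04), POLE2 at -1.33, MCM5 at -1.23, CDC6 at -1.13, RFC3 at -1.10 and E2F2 at -1.02. INO80 itself was also lower with siINO80#2 than with siINO80#1, by a log2 difference of -0.40 (adjusted p = 0.0058). Genes of mitosis differed in the same comparison, 27 of 30 of a list fixed for comparison being lower and 0 higher. Hepatocyte markers moved with them, 5 of 10 being lower with siINO80#2 than with siINO80#1, and their part in these differences was not tested.

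Depletion of MCRS1 in DMSO lowered many of the same functions, with other genes in front. By role, 4 of 6 MCM genes, 6 of 8 helicase activation genes, 5 of 6 clamp and loader genes, 6 of 9 polymerase genes, 3 of 3 RPA genes and 3 of 4 deoxynucleotide genes were lower, and ORC2 and E2F3 were higher. The control group had 2 libraries that differed in this set, and without DMSO NTG 1 the number of genes called dropped from 37 to 18. The median log2 change ran from -0.34 without that library to -0.64 without DMSO NTG 3.

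In what follows the controls are DMSO NTG 1 and 3, and siMCRS1 values are those of DMSO siMCRS1 1, 2 and 3, in normalized counts. E2F2 had the largest fall, at 329 and 298 in the controls and 127, 84.8 and 97.4 with siMCRS1, a log2 change of -1.61 (SE 0.25, adjusted p = 4.2e-04). UHRF1 read 6202 and 4957 in the controls and 2675, 1600.4 and 2094 with siMCRS1, a log2 change of -1.42 (SE 0.20, adjusted p = 3.1e-04). CDC45 read 911 and 738 in the controls and 392, 263 and 309 with siMCRS1, a log2 change of -1.37 (SE 0.21, adjusted p = 4.7e-04). For each of these 3 genes every siMCRS1 library lay below both controls. E2F1 followed closely, from 2306 and 1621 to 946, 669 and 703, with a log2 change of -1.34 (SE 0.22, adjusted p = 7.4e-04).

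Among the fork genes the largest falls with siMCRS1 were those of PRIM1, LIG1 and POLA2, followed by RFC5 (-1.11) and POLD2. PRIM1, which makes the RNA primer, changed by -1.26 ± 0.23 (SE) on the log2 scale, POLA2 by -1.21 ± 0.19 and LIG1, the ligase that seals Okazaki fragments, by -1.24 ± 0.21. LIG1 read 1945 and 1542 in the controls and 927, 582 and 733 with siMCRS1. POLD2, the second subunit of polymerase delta, read 2597 and 1844 in the controls and 1314, 932 and 861 with siMCRS1, a log2 change of -1.10 (SE 0.24, adjusted p = 0.0030). POLD1 read 829 and 624 in the controls and 504, 278 and 355 with siMCRS1, a log2 change of -0.97 (SE 0.25, adjusted p = 0.0091), with the call lost without DMSO NTG 1 (adjusted p = 0.096, log2 change -0.76). The groups did not overlap for any of these named genes with values.

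MCM5 and CDT1 fell by about the same amount, while MCM2 fell less. MCM5 went from 5111 and 3918 to 2674, 1821 and 2028 and CDT1 from 2780.3 and 1898 to 1406, 1024 and 1054, log2 changes of -1.06 (SE 0.18, adjusted p = 9.2e-04) and -0.999 (SE 0.21, adjusted p = 0.0024). MCM2 went from 6098 and 4526 to 4506, 3427 and 3481, a change of -0.48 (SE 0.16, adjusted p = 0.032) whose call was lost without DMSO NTG 1 (adjusted p = 0.30, log2 change -0.26) or without DMSO siMCRS1 2 or 3. PCNA went from 19405 and 16573 to 13520.1, 12274 and 11651, a change of -0.53 (SE 0.15, adjusted p = 0.012), lost without DMSO NTG 1 (adjusted p = 0.11, log2 change -0.41). MCM3, RRM2, DBF4 and CHAF1A had values of 0.21, 0.23, 0.12 and 0.19 and did not pass. With the column number as a replicate block, in a fit of the 8 numbered libraries, MCM3 and RRM2 passed as higher and CDC6 and POLE2 as lower.

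The 2 genes that rose were among the 4 that were higher with both INO80 siRNAs (ORC2, ORC4, E2F3 and DNMT1). E2F3 read 1495 and 1678 in the controls and 1915, 2396 and 2265 with siMCRS1, a log2 change of 0.46 (SE 0.13, adjusted p = 0.011). ORC2 read 2839 and 2856 in the controls and 3680.2, 3616 and 3708 with siMCRS1, a log2 change of 0.37 (SE 0.10, adjusted p = 0.013). In both genes the siMCRS1 libraries were above the controls. Neither call held under every setting, since rescaling to the same total took E2F3 to 0.23 (adjusted p = 0.17) and ORC2 to 0.13 (adjusted p = 0.40), and leaving out DMSO NTG 1 lost both (adjusted p = 0.10 and 0.070, log2 changes 0.38 and 0.36), as did leaving out DMSO NTG 3 for ORC2. DNMT1, the gene with the largest rise after INO80 depletion, read 1924 and 2081 in the controls and 1988, 1568 and 1792 with siMCRS1, a change of -0.17 (adjusted p = 0.37) that did not pass.

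**Figure D4:**
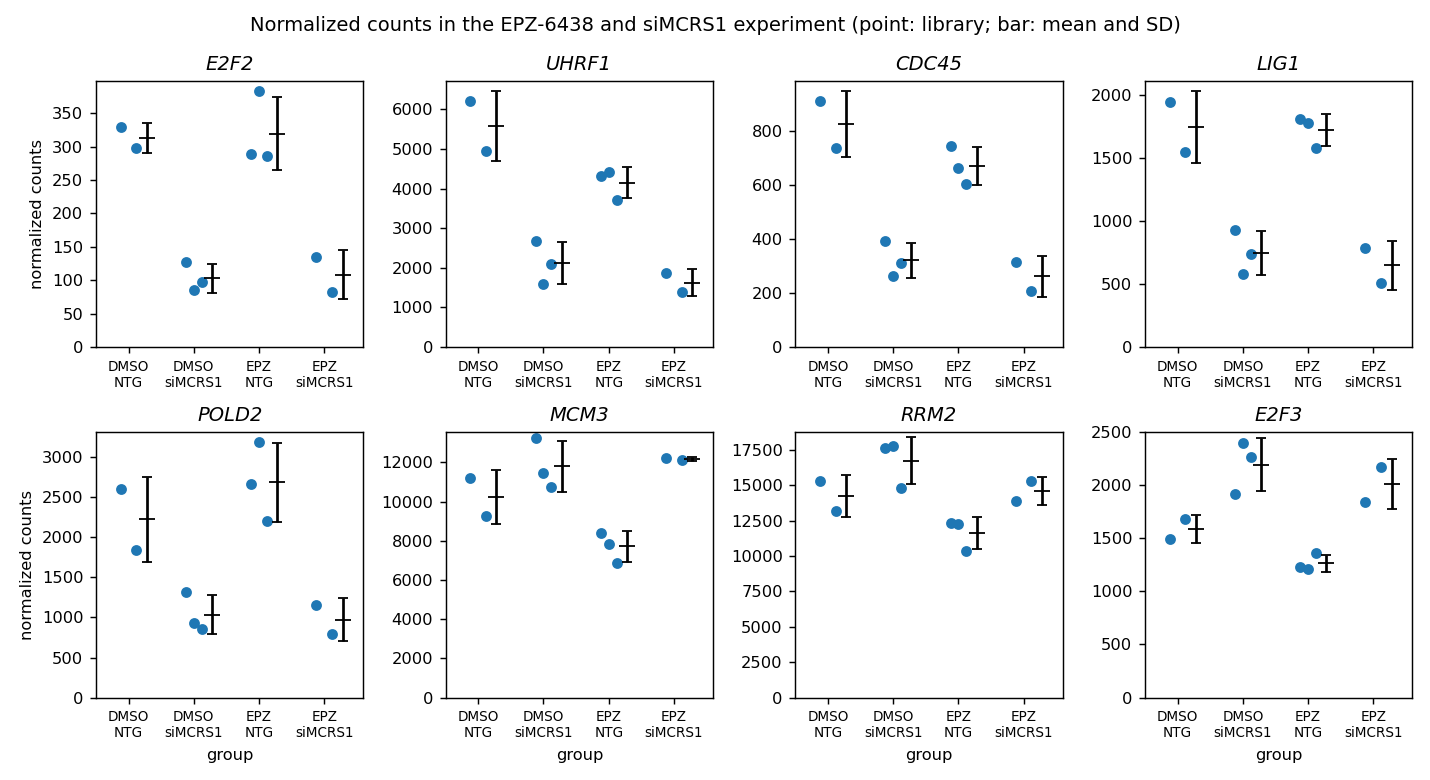
Normalized counts (vertical axis, from 0) of E2F2, UHRF1, CDC45, LIG1, POLD2, MCM3, RRM2 and E2F3 in the drug experiment, with 1 point per library, a horizontal line at the mean and a bar of 1 SD for DMSO NTG (2 libraries), DMSO siMCRS1 (3), EPZ-6438 NTG (3) and EPZ-6438 siMCRS1 (2). E2F2, UHRF1, CDC45, LIG1 and POLD2 are lower with siMCRS1 in either medium, whereas E2F3 is higher and MCM3 is lowest in EPZ-6438 NTG.

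In EPZ-6438, siMCRS1 was compared with NTG libraries of the same medium, which are other libraries than the DMSO controls. Here 24 genes were lower and 6 higher. E2F2 again led, at 289.8, 383 and 286 in the controls and 134 and 82.5 with siMCRS1, a log2 change of -1.58 (SE 0.25, adjusted p = 3.5e-04). POLD2 read 2660.0, 3191 and 2201 in the controls and 1159 and 788 with siMCRS1, a log2 change of -1.47 (SE 0.24, adjusted p = 4.2e-04). LIG1 read 1808, 1777 and 1578 in the controls and 785 and 510.4 with siMCRS1, a log2 change of -1.44 (SE 0.21, adjusted p = 2.7e-04). All 3 genes fell without overlap between groups, and CDC45 (-1.38), UHRF1 (-1.36) and E2F1 (-1.41) fell likewise.

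The 6 genes that rose in EPZ-6438 were E2F3, MCM3, CCNE2, ORC2, DBF4 and RRM2. E2F3 read 1226, 1209.8 and 1357 in the controls and 1846 and 2175 with siMCRS1, a log2 change of 0.67 (SE 0.13, adjusted p = 0.0012). MCM3 read 8408, 7862 and 6864 in the controls and 12231 and 12107 with siMCRS1, a log2 change of 0.66 (SE 0.13, adjusted p = 0.0013), and CCNE2, a cyclin E gene, read 297, 251 and 261 in the controls and 399 and 452 with siMCRS1, a log2 change of 0.66 (SE 0.13, adjusted p = 0.0018). For these 3 genes the siMCRS1 libraries were above all NTG libraries, and MCM3 is the only MCM gene that rose in any of the 4 siRNA comparisons. Its call was lost under quantile normalization (0.29, adjusted p = 0.062). In DMSO, MCM3 read 11221 and 9252 in NTG and 13251, 11436 and 10736 with siMCRS1. CCNE2 there read 468 and 417 in NTG and 427, 456 and 430 with siMCRS1. Both genes were thus lowest in the EPZ-6438 NTG libraries, the controls of these rises.

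The rises of DBF4 and RRM2 were small and rested on the scaling. DBF4 read 2148, 1897 and 1806 in the controls and 2449 and 2524 with siMCRS1, a log2 change of 0.35 (SE 0.10, adjusted p = 0.014), which became 0.12 (adjusted p = 0.39) after rescaling to the same total and was lost without EPZ-6438 siMCRS1 B (adjusted p = 0.092, log2 change 0.33). RRM2 read 12323, 12241 and 10362 in the controls and 13923 and 15293 with siMCRS1, a log2 change of 0.33 (SE 0.12, adjusted p = 0.042), which became 0.09 (adjusted p = 0.49) after rescaling and changed sign to -0.11 under quantile normalization. The RRM2 call was also lost without DMSO siMCRS1 1 or 2, EPZ-6438 NTG 3 or either EPZ-6438 siMCRS1 library (adjusted p up to 0.24, log2 change 0.26 without B). Together with POLD1 and CHAF1A, MCM3, DBF4 and RRM2 are the 5 genes of the set called lower in one siRNA comparison and higher in another. The share of all genes with such calls was not counted.

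Without pairing of libraries, EPZ-6438 on its own changed none of the 56 genes past the threshold. In NTG cells limma and edgeR each called 0 (0.384% of all genes tested were called, in either direction), with 18 lower and 0 higher at an unadjusted p under 0.05 by limma, where 8.52% of all genes were lower by that measure. The median was -0.21 against -0.03 over all genes, and moved to -0.08 without DMSO NTG 1 and -0.35 without DMSO NTG 3. CCNE2 came closest to the threshold, at 468 and 417 in DMSO NTG and 297, 251 and 261 in EPZ-6438 NTG, a log2 change of -0.71 (SE 0.13, adjusted p = 0.056). When the column number was a replicate block, in the 8 numbered libraries, 9 of the 56 genes were lower in EPZ-6438 and 0 higher, against 4.68% of all genes lower. They were MCM3, MCM6, ORC1, CDC6, MCM10, PCNA, RRM1, RRM2 and CCNE2, with CCNE2 at -0.70 (SE 0.12, adjusted p = 0.024) and CDC6 at -0.47 (SE 0.07, adjusted p = 0.017). The numbers are not among the labels, and nothing states that they mark a shared culture. In siMCRS1 cells both tools also called 0, where 0.0908% of all genes were called. At an unadjusted p under 0.05 by limma, 3 were lower and 0 higher, beside 534 lower and 771 higher of all 14312 genes tested. The median of the 56 genes was -0.07, from -0.13 without EPZ-6438 siMCRS1 A to 0.011 without DMSO siMCRS1 1. The interaction, that is, the difference between the siMCRS1 changes in the 2 media, passed for 0 of the 56 genes by either tool and for 0% of all genes. At an unadjusted p under 0.05 by limma, 0 of the 56 were lower and 2 higher, beside 210 lower and 126 higher of all 14312. The interaction median of 0.14 moved to 0.0028 without DMSO NTG 1 and to 0.27 without DMSO NTG 3, and its values for MCM3 and CCNE2 were 0.46 ± 0.18 and 0.67 ± 0.19 (SE). A call in 1 medium and not in the other therefore does not show a difference between media.

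The INO80 and MCRS1 comparisons share no library, so their calls could be set side by side. INO80 itself was lower with siMCRS1, at 1815, 1718 and 1970 normalized counts against 2313 and 2104 in DMSO NTG. In EPZ-6438 it read 1767 and 1686 with siMCRS1 against 2166, 2250 and 2197 in NTG. The part of INO80 in the shared calls was not tested. Of the 47 genes lower with siINO80#2 and the 35 lower with siMCRS1 in DMSO, 35 were common, 74.5% of the first list and 100% of the second. Over the 13534 genes tested in both experiments, 2200 were common to the lower lists, 55.2% and 64.1% of the 2 lists. With siINO80#1, 19 genes were common with siMCRS1 in DMSO, 79.2% of its 24 and 54.3% of the 35, and over all genes the shares were 63.4% and 53.9%. Since siINO80#2 lowered most of the set, a large share of the siMCRS1 list had to fall within it.

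**Figure D5:**
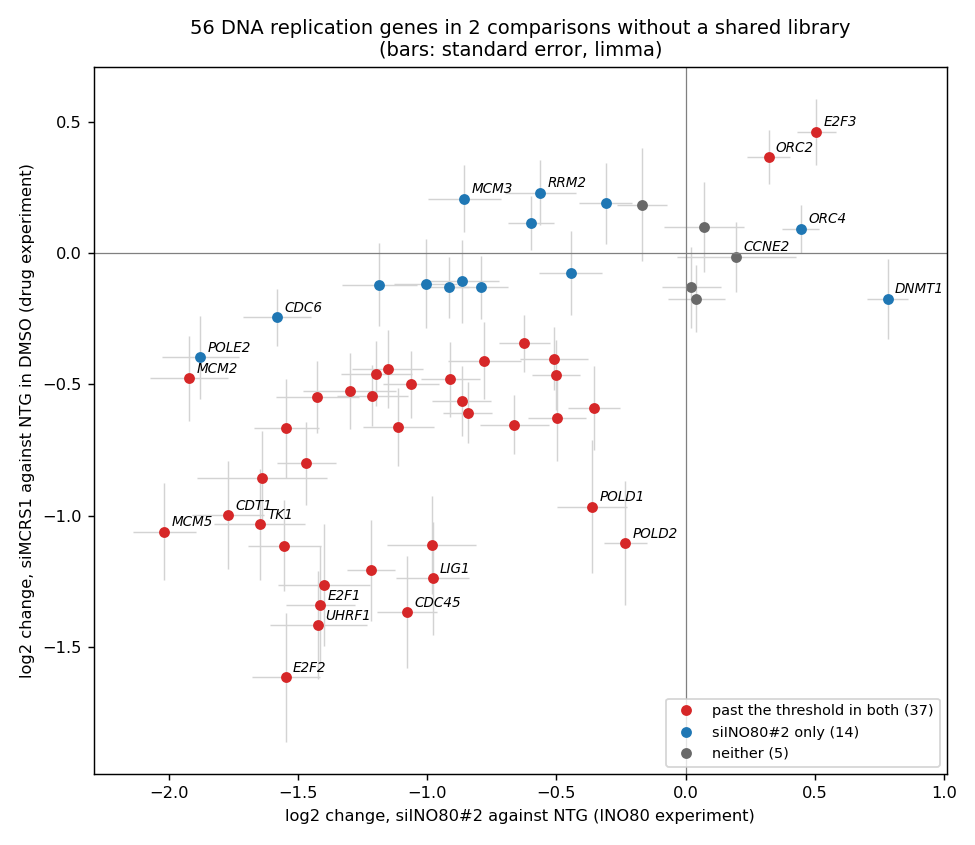
Each point is 1 of the 56 genes, placed by its log2 change with siINO80#2 against NTG (horizontal axis) and with siMCRS1 against NTG in DMSO (vertical axis), in color by whether it passed in both (37), with siINO80#2 only (14) or in neither (5). Most points lie in the lower left, with E2F2, UHRF1 and E2F1 low on both axes and MCM2 and POLE2 low mainly on the horizontal axis.

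Patterns over 3 or 4 comparisons were counted for the set alone. The share of all genes tested with the same pattern was not counted, so these counts only describe the set. In siINO80#1, siINO80#2 and siMCRS1 in DMSO alike, 19 genes were lower. They are MCM2, MCM5, MCM6, ORC1, ORC3, CDT1, GINS1, GINS2, PCNA, RFC1, RFC2, RFC5, POLA2, RPA1, RPA3, RRM1, TK1, E2F1 and E2F2, so every role in the set has a member among them except Okazaki fragment joining and the chromatin group. Of the 19, 13 were also lower with siMCRS1 in EPZ-6438 (MCM5, ORC3, CDT1, GINS1, RFC1, RFC2, RFC5, POLA2, RPA1, RPA3, TK1, E2F1 and E2F2), and ORC2 and E2F3 were higher in all 4. Some of these calls were lost when 1 library was left out. With siINO80#1 they were MCM2, MCM6, ORC1 and PCNA (in 5, 4, 6 and 5 of 9 fits). Without DMSO siMCRS1 2 the DMSO calls of MCM2, MCM6 and RFC1 were lost. In EPZ-6438, RPA1 and RPA3 were lost without EPZ-6438 NTG 1, and RFC1 and RPA1 without EPZ-6438 NTG 2. Further siMCRS1 calls rested on DMSO NTG 1 or EPZ-6438 siMCRS1 B, whose omission leaves 1 library in the group. Another 15 genes were lower with siINO80#2 and with siMCRS1 in DMSO without passing with siINO80#1, CDC45, UHRF1, LIG1 and PRIM1 among them. With the replicate block, 9 of these 15 passed with siINO80#1 as well (MCM4, GINS4, MCM10, PRIM1, PRIM2, LIG1, TYMS, CDK2 and UHRF1). A further 6 were lower with siINO80#2 and did not pass with siINO80#1 or with siMCRS1 in DMSO (MCM3, RFC3, POLE, FEN1, RRM2 and CHAF1B), and of these MCM3 and RRM2 were higher with siMCRS1 in EPZ-6438. ORC5, CDC7, CCNE1 and CCNE2 passed in none of the 3, and of these CCNE2 rose with siMCRS1 in EPZ-6438.

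Other genes of the pathway were more often lower than higher. Of 74 further genes of replication and the G1/S switch that were tested, 46 were lower and 10 higher with siINO80#2 (median -0.53), 24 and 7 with siINO80#1 (median -0.24), 35 and 8 with siMCRS1 in DMSO (median -0.30) and 22 and 10 in EPZ-6438 (median -0.17). The shares that were lower were 62.2%, 32.4%, 47.3% and 29.7%, beside 28.4%, 20.8%, 24.6% and 26.9% of all genes tested, so that in EPZ-6438 the share was near that of all genes. The shares that were higher, 13.5%, 9.46%, 10.8% and 13.5%, lay under those of all genes. Among the origin firing and fork factors, TICRR, which helps to load CDC45, changed by -1.21 with siINO80#2, and CHTF18, part of an alternative clamp loader, by -1.31 with siMCRS1 in DMSO. ASF1B, a histone chaperone, fell in all 4 comparisons (-0.82, -1.90, -1.28 and -1.29).

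Inhibitors of the G1 kinases were among the G1/S regulators with the largest changes. CDKN2C, which encodes an inhibitor of CDK4 and CDK6, changed by -0.59 with siINO80#1, -2.04 with siINO80#2. The siMCRS1 changes were -1.18 and -1.23 in the DMSO and the EPZ-6438 medium. CDKN2B, which encodes another of them, rose in the same 4 comparisons by 0.98, 2.097, 0.95 and 1.003. The 2 inhibitor genes thus moved in opposite directions in every siRNA comparison.

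Genes of mitosis, fixed as a comparison list of 30, were lower in 26 and higher in 0 with siINO80#2 (median -0.88), lower in 11 and higher in 4 with siINO80#1 (median -0.24), lower in 11 and higher in 3 with siMCRS1 in DMSO (median -0.21) and lower in 5 and higher in 8 in EPZ-6438 (median -0.04). The lower shares were 86.7%, 36.7%, 36.7% and 16.7%, the last of them under the 26.9% of all genes, and the higher share in EPZ-6438 was 26.7% beside 26.8% of all genes. HMMR, a spindle protein gene, fell in all 4 (-1.03, -1.75, -0.88 and -0.65), and PRC1, which bundles microtubules of the central spindle, rose with siINO80#1 (0.98) and with siMCRS1 in both media (0.99 and 1.28). PRC1 was not called higher with siINO80#2. Of 10 hepatocyte markers, 6 were also lower with siINO80#2 (median -0.58), against 1 of 10 with siINO80#1 and with siMCRS1 in DMSO. Of the fibroblast markers COL1A1 was the highest with siMCRS1, the list summing to 377 to 801 normalized counts in DMSO siMCRS1 against 242 to 293 in DMSO NTG, and to 646 to 801 in EPZ-6438 siMCRS1 against 130.4 to 217 in EPZ-6438 NTG, and the part of either marker list in the results was not tested.

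For 19 of the 56 genes the annotation places another protein-coding gene over part of the same locus, 6 on the same strand and 14 on the opposite one, with PRIM1 counted in both. RPA3 overlaps UMAD1 and GINS1 overlaps NINL on the opposite strand, and DNMT1 overlaps S1PR2 and FEN1 overlaps FADS2 on the same strand. Whole gene spans were compared, introns included, and overlap of exons was not checked. The library kit keeps strand, but whether the counting used it is not given in the sources used here. Whether reads of such pairs were shared was not tested, so the values of these genes may be less certain.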

How the data were processed

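mRNA-seq of HepG2 cells was deposited as 2 tables of normalized counts, a signal that the authors made by dividing gene counts by 1 size factor per library. The labels' processing notes name kallisto, DESeq2 and the build GRCh38, and their versions and roles are not given in the sources used here. Every value was a whole multiple of 1 read within 0.01 reads (100% of values), so reads could be recovered. A library's floor of 3 reads is 2.13 to 4.30 normalized counts and covers counting error only.

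Genes with a mean of at least 10 were fitted with limma 3.58.1 (eBayes with a trend, R 4.3.3) on log2(normalized count + 1), 1 fit per experiment over its groups, with Benjamini-Hochberg adjustment over all genes tested and a threshold of 0.05. This scale understates changes of low genes. Alternatives were edgeR 4.0.16 on recovered reads (chosen after seeing the data), other pseudocounts, filters, scalings and fits, and leaving out each library. The members, lists and tests were chosen with earlier results of these data known, so counts over the set carry no test. Values in every library are given for the 3 largest rises and falls among the called members of each comparison, members called in opposite directions, the 6 largest differences between INO80 siRNAs and, where a role had none of these, its first member. PCNA, TK1, CDT1, E2F1 and CCNE1 were added after their values were seen. For other lists, examples come from the 3 largest changes. The letters were not a block in the main fits. Deviations from group means correlated over 0.1 in all 3 same-letter pairs for siINO80#1 and NTG, in 0 of 3 for siINO80#2 and NTG and in 2 of 3 between the siRNAs. The plan took the letters as pairs only where every pair of groups correlated over 0.1, which was not met. A fit with the block is given as an alternative. Column numbers of 8 drug libraries were tried as a block after seeing the data. Promoters and gene overlaps were looked up by symbol, in RefSeq (GRCh38.p14) and in a GENCODE v44 annotation on GRCh37.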

Additional observations from a re-analysis of the deposited data

Results flagged for a closer look

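POLD1 and CHAF1A drew attention because the 2 INO80 siRNAs moved them to opposite sides of NTG in the main fit. Both POLD1 calls and the CHAF1A fall against NTG depended on the processing. The POLD1 rise was lost on rescaling to the same total, and both falls were lost under quantile normalization. The CHAF1A rise passed under every setting, though closely on rescaling (0.33, limma adjusted p = 0.049). The difference between the siRNAs passed under every setting for both genes. The direct difference, siINO80#2 against siINO80#1, was -0.77 (SE 0.13, adjusted p = 0.0032) for POLD1 and -0.72 (SE 0.10, adjusted p = 0.0011) for CHAF1A on the log2 scale (limma), and in both genes all 3 siINO80#2 libraries were below all 3 siINO80#1 libraries.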

How the results depend on the processing

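Of 3854 values for 189 calls of members under all alternatives, 3656 kept direction and side of the threshold, 197 kept direction and lost the threshold and 1 changed sign (RRM2, siMCRS1 in EPZ-6438, -0.11 under quantile normalization), and 134 calls were never lost. The median log2 change with siMCRS1 moved to -0.71 in DMSO and -0.54 in EPZ-6438 when libraries were rescaled to the same total, which also moved the median of all genes by -0.23. Quantile normalization called 1 member for EPZ-6438 against DMSO in NTG. Leaving out 1 library gave 23 to 39 members called with siINO80#1, 48 to 50 with siINO80#2, 31 to 40 between them, 18 to 38 with siMCRS1 in DMSO (median -0.64 to -0.34) and 21 to 31 in EPZ-6438, a median of -0.354 to -0.0786 for EPZ-6438 against DMSO in NTG and of 0.0028 to 0.27 for the interaction. The extremes of the siMCRS1 median in DMSO and of the last 2 medians came from leaving out DMSO NTG 1 or 3, where the lone control was assumed to vary like the other groups.

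With the letter as a replicate block, 41 members were called with siINO80#1, 51 with siINO80#2 and 45 between them. The letters are not known to mark a shared culture. Same-letter correlations of deviations were 0.14 to 0.26 between siINO80#1 and NTG, -0.08 to 0.09 between siINO80#2 and NTG and 0.0036 to 0.13 between the siRNAs. In the drug experiment, a replicate block by column number in the 8 numbered libraries (chosen after seeing the data) called 41 members with siMCRS1 in DMSO and 9 for EPZ-6438 against DMSO in NTG, where the same libraries without a block gave 37 and 0. Of 7 same-number pairs, 6 had a correlation over 0.1 (-0.02 to 0.30). These pairs are not independent, since the deviations of DMSO NTG 1 and 3 are exact opposites. The only pair of libraries numbered 2 was the one at -0.02. Columns of EPZ-6438 siMCRS1 carry letters, so no paired analysis was possible for that group. Leaving out 1 library moved the median for EPZ-6438 against DMSO in siMCRS1 between -0.13 and 0.011. With 2 or 3 libraries a group, changes of small size lie within the spread between libraries.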
